A study of Mus musculus with 8 samples.

Results

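The genes described here are the Notch receptors Notch1, Notch2 and Notch3, the ligands Jag1, Jag2 and Dll1, and the target genes Hes1, Hey1, Heyl and Nrarp. They were taken by gene symbol from a list of 10 members, and 9 of them had a probe set annotated to that symbol alone, among 17097 genes measured in all. Jag2 was not analysed here. The 9 genes had 15 probe sets, and each gene is led by its probe set with the highest mean signal over all arrays.

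Notch receptors are transmembrane proteins that are activated by ligands of the Jagged and Delta-like families on a neighbouring cell. Cleavage by an ADAM protease and then by gamma-secretase frees the intracellular domain, which joins the DNA-binding protein RBPJ and a Mastermind coactivator to switch on genes such as those of the Hes and Hey family. In epidermis, Notch signalling is known for driving basal keratinocytes to leave the basal layer and start differentiation, and mouse skin that lacks Notch1 becomes hyperplastic.

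The cells were basal keratinocytes of the back skin of CD1 mice, an outbred laboratory stock. In the EXPD4 group, 3 mice had their skin expanded by a mechanical force and were sampled at day 4. In the TPA group, 2 mice received 12-O-tetradecanoylphorbol-13-acetate, a tumour promoter of the phorbol ester class. The CTRL group was 3 untreated mice. Each array carried cDNA amplified from 300 cells of 1 mouse, sorted as positive for the integrin ITGA6 and negative for CD34, a gate that also takes in infundibulum cells of the upper hair follicle. The labels state no dose, schedule, age or sex. Values are log2 signals, so a difference of 1 is a 2-fold change, and because the cells were pooled before lysis, fewer cells of a type and less RNA per cell cannot be told apart. A gene is called when limma's moderated test, adjusted by Benjamini-Hochberg over all genes, gave an adjusted p under 0.05. Differences are given with their SE, and means with their SD over 3 EXPD4, 2 TPA or 3 CTRL arrays.

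The basal keratins Krt5 and Krt14 had group means of 13.28 to 13.33, and the basal regulator Trp63 had means of 12.29 to 12.39. The highest gene of each array was at 13.63 to 13.68, so the 2 keratins lay near the top of the range, with little room for a rise. Other basal markers did change. Of 12 measured, 2 were higher and 6 lower in EXPD4 and again in TPA, each against CTRL (66.7%, with 11.5% and 20.8% of all genes called). Itga6, the sorting marker, was at -0.47 ± 0.07 in EXPD4 and -0.69 ± 0.08 in TPA, and Krt15 at 1.23 ± 0.09 and 2.38 ± 0.10. Cd34 lay under the background limit on every array, which is the 95th percentile of 79 chemosensory receptor genes (6.37 to 6.55). The arrays are named by their labels because genes known to be induced by phorbol ester and wounding ran against them. Odc1, the polyamine enzyme known for its induction by TPA, had a mean of 8.99 in the arrays labelled TPA and 9.84 in the arrays labelled EXPD4, against 11.34 in the arrays labelled CTRL. The keratin Krt16 averaged 12.15 in TPA, 12.90 in EXPD4 and 13.04 in CTRL arrays. Every direction that involves the TPA or CTRL arrays below rests on these labels as given. The comparisons of EXPD4 with CTRL and of TPA with CTRL share the same 3 CTRL arrays.

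Sequence upstream of the start site was at hand for 7 of the 10 members, in RefSeq's promoters on GRCm38.p6. It is shown for Notch1, Jag1 and Dll1 and, from outside the members, for Lfng. The windows of Notch2, Notch3, Jag2 and Nrarp held no match and are not shown. Notch1 and Jag1 passed the test in both comparisons with CTRL, in opposite directions. Dll1 is the ligand that passed in EXPD4, and Lfng, which encodes the Fringe enzyme that modifies Notch receptors, passed in TPA. The 250 bases before each start were searched on both strands for TGGGAA, the core letters bound by RBPJ, and for TGANTCA, the letters of the AP-1 site also known as the TPA response element. The Dll1 window is that of its upstream start, the one of 2 that held a match. Capitals mark a match.
Notch1, chr2:26503823-26504072, minus strand: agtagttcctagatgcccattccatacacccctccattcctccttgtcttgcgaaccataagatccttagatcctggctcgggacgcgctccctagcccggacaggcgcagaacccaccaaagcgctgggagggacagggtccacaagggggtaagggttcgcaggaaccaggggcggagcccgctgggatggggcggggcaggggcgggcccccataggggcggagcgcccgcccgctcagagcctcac
Jag1, chr2:137116521-137116770, minus strand: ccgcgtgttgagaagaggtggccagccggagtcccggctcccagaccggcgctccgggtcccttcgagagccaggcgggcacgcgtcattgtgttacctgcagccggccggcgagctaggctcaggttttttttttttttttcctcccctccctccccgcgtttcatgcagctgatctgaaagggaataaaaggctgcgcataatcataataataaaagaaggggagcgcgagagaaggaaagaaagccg
Dll1, chr17:15376933-15377182, minus strand: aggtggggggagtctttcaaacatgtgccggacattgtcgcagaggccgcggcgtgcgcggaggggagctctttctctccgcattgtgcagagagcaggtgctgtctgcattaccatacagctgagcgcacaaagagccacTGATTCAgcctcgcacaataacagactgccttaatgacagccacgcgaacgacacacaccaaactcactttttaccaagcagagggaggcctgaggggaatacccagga
Lfng, chr5:140607091-140607340, plus strand: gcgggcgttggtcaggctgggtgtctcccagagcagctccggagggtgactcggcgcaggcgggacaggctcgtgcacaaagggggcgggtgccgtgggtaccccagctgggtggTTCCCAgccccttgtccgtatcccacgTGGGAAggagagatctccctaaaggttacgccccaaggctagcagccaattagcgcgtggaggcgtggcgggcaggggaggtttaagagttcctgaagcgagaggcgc
The RBPJ letters were in 0 of the 8 windows of the members and in 21.6% of all 32851 promoter windows of that length. The member windows are those of Notch1, Notch2, Notch3, Jag1, Jag2, Dll1 and Nrarp. No sequence was at hand for the targets Hes1, Hey1 and Heyl, so their promoters were not searched. The AP-1 letters were in 1 of the 8, the Dll1 window above, with the match starting 109 bases before the start site, and in 6.75% of all windows. Lfng held the RBPJ letters at 2 places, and Rbpj held them at 2 places in the window of its upstream start. No window shown held both motifs, and a match is a description of letters, not a site in use.

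Among the receptors, Notch1 was higher in both the EXPD4 and TPA arrays than in CTRL. Notch1, the main receptor of epidermal differentiation, had signals of 11.62, 11.51 and 11.62 in EXPD4, 11.78 and 11.94 in TPA, and 11.07, 11.01 and 11.06 in CTRL. The 3 groups did not overlap, with TPA highest and CTRL lowest. Notch1 rose by 0.53 ± 0.07 in EXPD4 relative to CTRL, a 1.45-fold change (adjusted p = 0.00211). In TPA relative to CTRL it rose by 0.81 ± 0.08, a 1.76-fold change (adjusted p = 0.000192). The difference between the neighbouring EXPD4 and TPA levels did not pass the test (-0.28 ± 0.08, 95% interval -0.46 to -0.10, adjusted p = 0.088). The dimmer Notch1 probe set, with means of 8.59 in EXPD4, 8.82 in TPA and 7.97 in CTRL, was called in the same direction in both comparisons with CTRL (0.63 ± 0.11 and 0.85 ± 0.13).

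Notch2, a receptor with a largely overlapping role in skin, was lower in TPA. Its signals were 10.02, 10.07 and 10.08 in EXPD4, 9.73 and 9.96 in TPA, and 10.27, 10.38 and 10.25 in CTRL. Here the order was the reverse of that of Notch1, with CTRL highest and TPA lowest, again without overlap. Notch2 fell in TPA relative to CTRL (-0.46 ± 0.09, adjusted p = 0.00721), and without TPA replicate 1 the call was lost (-0.34, adjusted p = 0.0548). The EXPD4 level was between the others and passed against neither CTRL (-0.24 ± 0.08, 95% interval -0.43 to -0.06, adjusted p = 0.0964) nor TPA (0.21 ± 0.09, 95% interval 0.01 to 0.42).

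Notch3 was the receptor called between EXPD4 and TPA, where Notch1 and Notch2 also had no overlap but did not pass. Its signals were 9.22, 9.44 and 9.44 in EXPD4, 8.92 and 8.68 in TPA, and 9.17, 9.14 and 9.10 in CTRL. EXPD4 was highest and TPA lowest. Notch3 was higher in EXPD4 than in TPA by 0.57 ± 0.10 (adjusted p = 0.0156). It was lower in TPA than in CTRL by the narrowest margin of the members called (-0.34 ± 0.10, adjusted p = 0.0473), while the difference between EXPD4 and CTRL did not pass (0.23 ± 0.09, 95% interval 0.02 to 0.44, adjusted p = 0.165). The other Notch3 probe set gave larger TPA differences, with -0.73 ± 0.11 in TPA relative to CTRL (adjusted p = 0.00169) and 0.77 ± 0.11 between EXPD4 and TPA (adjusted p = 0.00593). With the leading probe set the call in TPA against CTRL was lost in 6 of the 8 fits that left out an array: each CTRL array in turn (-0.32, -0.34 and -0.36), EXPD4 replicate 2 or 3 (-0.34 each) and TPA replicate 2 (-0.22, adjusted p = 0.262). The call between EXPD4 and TPA was lost without EXPD4 replicate 2 (0.53), EXPD4 replicate 3 (0.53) or TPA replicate 2 (0.45, adjusted p = 0.0725).

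**Figure D1:**
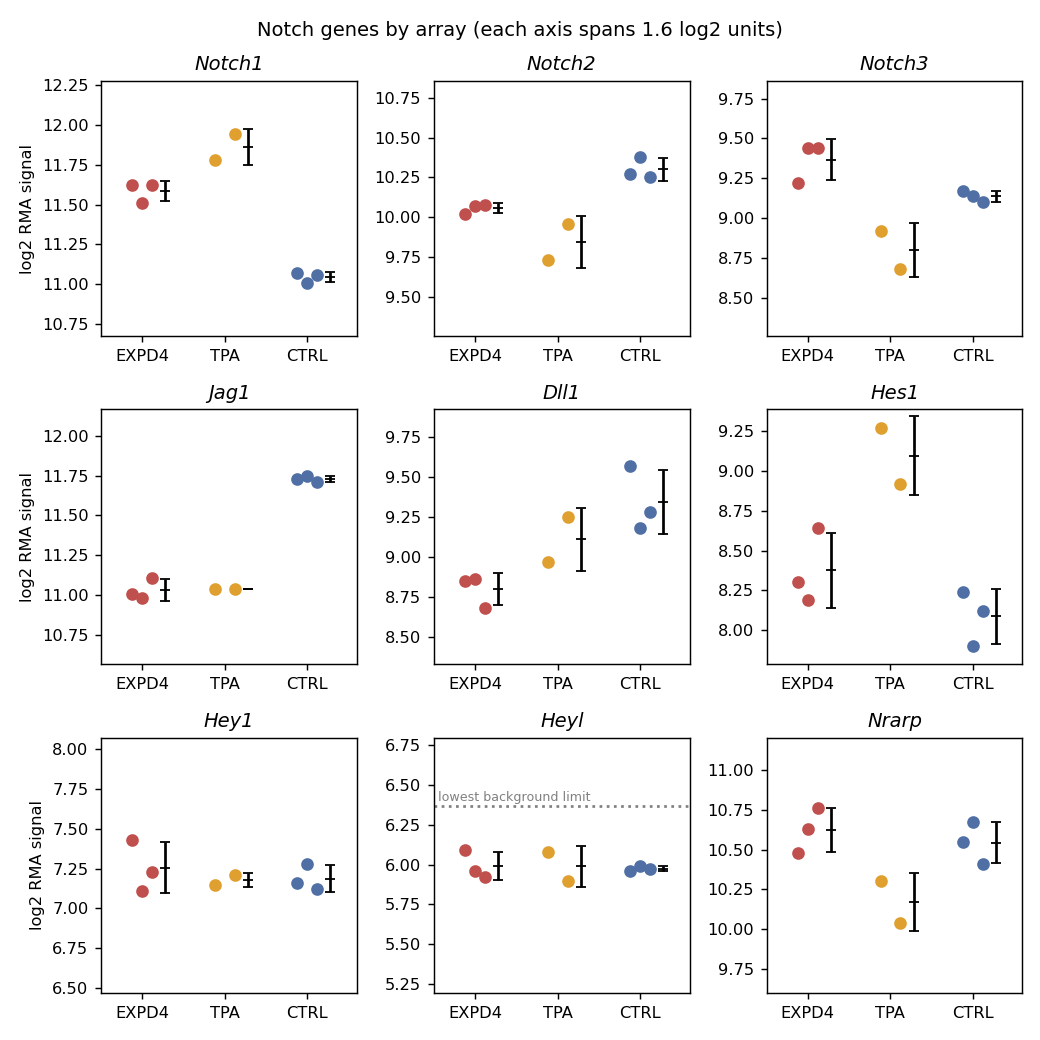
Log2 RMA signal (vertical axes, each spanning 1.6 units) of the 9 measured Notch genes in the EXPD4, TPA and CTRL arrays. Points are arrays, black ticks and bars are group mean and SD, and the dotted line is the lowest background limit of any array, 6.37. Notch1 and Hes1 are highest in TPA, Jag1 lies near 11.0 in both EXPD4 and TPA arrays and near 11.7 in CTRL arrays, and Heyl stays below the limit.

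Among the ligands, Jag1 was lower in both the EXPD4 and TPA arrays than in CTRL. Jag1, a ligand of the Jagged family, had signals of 11.01, 10.98 and 11.11 in EXPD4, 11.04 and 11.04 in TPA, and 11.73, 11.75 and 11.71 in CTRL. Every EXPD4 and TPA array lay below every CTRL array, and EXPD4 and TPA overlapped. Jag1 fell by 0.70 ± 0.07 in EXPD4 (-0.70, adjusted p = 0.000385) and by 0.69 ± 0.07 in TPA (-0.69, adjusted p = 0.000268), each relative to CTRL. The difference between EXPD4 and TPA was 0.00 ± 0.07, with a 95% interval of -0.17 to 0.16. The dimmer Jag1 probe set showed differences of -1.07 ± 0.10 in EXPD4 and -1.09 ± 0.11 in TPA relative to CTRL, so the size of the Jag1 change depended on the probe set while its direction did not.

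Dll1, a Delta-like ligand known for marking clustered basal cells with stem cell traits in human epidermis, had signals of 8.85, 8.86 and 8.68 in EXPD4, 8.97 and 9.25 in TPA, and 9.57, 9.18 and 9.28 in CTRL. EXPD4 lay below both other groups, and TPA overlapped with CTRL. Dll1 was lower in EXPD4 than in CTRL (-0.55 ± 0.12, adjusted p = 0.0204). TPA did not pass against CTRL (-0.23 ± 0.13, 95% interval -0.54 to 0.07), nor did EXPD4 against TPA (-0.31 ± 0.13, 95% interval -0.62 to -0.01, adjusted p = 0.247). The call in EXPD4 was lost without CTRL replicate 1 (-0.44, adjusted p = 0.0516), CTRL replicate 3 (-0.58, adjusted p = 0.0529) or EXPD4 replicate 3 (-0.49, adjusted p = 0.0732). CTRL replicate 1, the array with the highest Dll1 signal, also had the highest summed linear signal of 12 endothelial markers, at 2536. That sum ranged from 1031 to 1488 in EXPD4, from 922 to 978 in TPA and from 1050 to 2536 in CTRL. Its part in the result was not tested. Of the 12 markers 6 were under the background limit on every array, among them the endothelial Notch genes Dll4 and Notch4.

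Among the targets, Hes1 changed and the Hey genes did not pass the test. Hes1, a transcriptional repressor and a classic direct target of Notch that is also known to keep spinous keratinocytes from terminal differentiation, had signals of 8.30, 8.19 and 8.64 in EXPD4, 9.27 and 8.92 in TPA, and 8.24, 7.90 and 8.12 in CTRL. Both TPA arrays lay above all others, and EXPD4 overlapped with CTRL. Hes1 rose in TPA by 1.01 ± 0.16 relative to CTRL, a 2.01-fold change (adjusted p = 0.00273). EXPD4 was lower than TPA (-0.72 ± 0.16, adjusted p = 0.0394) and did not pass against CTRL (0.29 ± 0.15, 95% interval -0.04 to 0.62). The call between EXPD4 and TPA was lost in 5 of the 8 fits that left out an array, namely CTRL replicate 1 (-0.72, adjusted p = 0.0523) or 3 (-0.72), EXPD4 replicate 1 (-0.68) or 2 (-0.63), or TPA replicate 1 (-0.54, adjusted p = 0.204). The summed linear signal of 6 markers of the upper follicle and infundibulum, cells that the gate takes in, ranged from 3563 to 6508 in EXPD4, from 8407 to 9746 in TPA and from 6173 to 9065 in CTRL. It did not overlap between EXPD4 and TPA, 0 of the 6 were called there, and Gata6 was under the background limit on every array. Its part in the Hes1 result was not tested.

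Nrarp encodes an ankyrin repeat protein that is induced by Notch and dampens it. Its signals were 10.48, 10.63 and 10.76 in EXPD4, 10.30 and 10.04 in TPA, and 10.55, 10.67 and 10.41 in CTRL. TPA lay below the other groups, which overlapped each other. No Nrarp difference passed: TPA against CTRL was -0.37 ± 0.12 (adjusted p = 0.0648), EXPD4 against TPA was 0.45 ± 0.12 (adjusted p = 0.0704), and EXPD4 against CTRL was 0.08 ± 0.11 (95% interval -0.17 to 0.33). Its other probe set gave nearly the same values (-0.38 ± 0.13, 0.47 ± 0.13 and 0.09 ± 0.12). The 2 targets thus stood on opposite sides of CTRL in the TPA arrays, Hes1 above and Nrarp, short of the threshold, below.

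Hey1, a repressor of the Hairy family known mainly from heart and vessels, had means of 7.26 ± 0.16 in EXPD4, 7.18 ± 0.04 in TPA and 7.19 ± 0.08 in CTRL. Its differences from CTRL were 0.07 ± 0.09 in EXPD4 and -0.01 ± 0.10 in TPA, and intervals for the 3 comparisons reached from -0.25 to 0.32. Heyl, its relative that is known as a target of Notch3 in vascular smooth muscle, had means of 5.99 ± 0.09 in EXPD4, 5.99 ± 0.13 in TPA and 5.97 ± 0.01 in CTRL. These lie under the background limit on all arrays, so no Heyl difference could be measured.

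**Figure D2:**
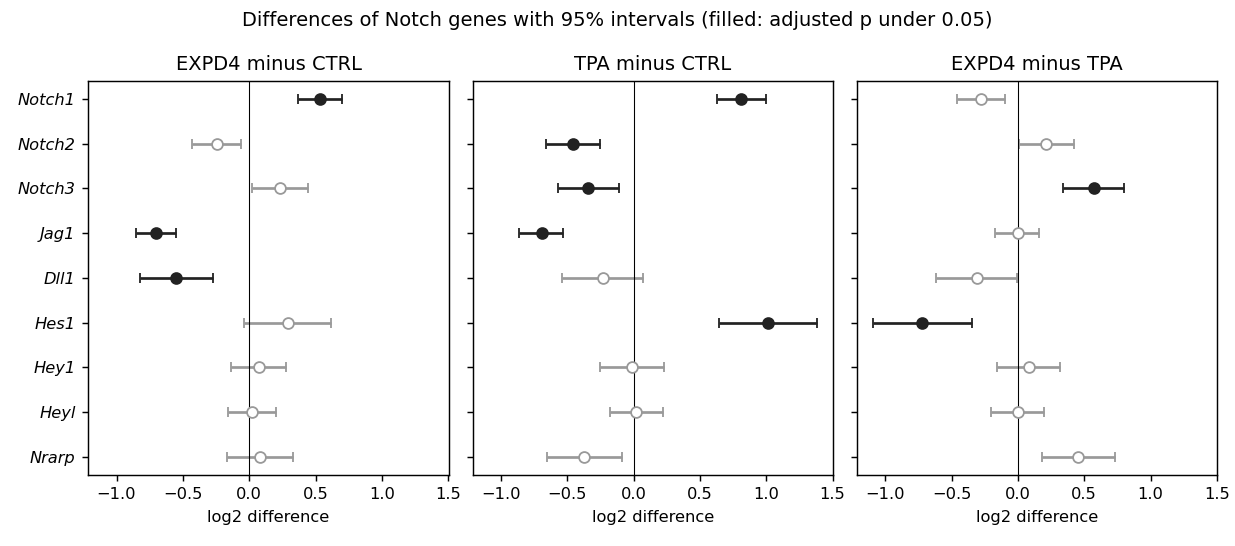
Log2 differences (horizontal axes) of the 9 measured Notch genes in the 3 comparisons, with 95% intervals. Filled points have an adjusted p under 0.05. Notch1 and Jag1 lie on opposite sides of 0 in both comparisons with CTRL, Dll1 is called in EXPD4 against CTRL, and Hes1 has the largest difference in TPA against CTRL, 1.01.

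Counted over the 9 members, 1 was higher and 2 were lower in EXPD4 than in CTRL (33.3%, where 11.5% of all genes were called, 5.69% higher and 5.78% lower). In TPA against CTRL 2 were higher and 3 lower (55.6%, where 20.8% of all genes were called, 10.2% higher and 10.6% lower), and in EXPD4 against TPA 1 was higher and 1 lower (22.2%, where 5.98% of all genes were called, 3.16% higher and 2.81% lower). With 9 members these shares are descriptions. Groups did not overlap for 5, 6 and 6 of the 9, in the same order, and for 30.0%, 45.8% and 35.7% of all genes. The median difference of the members was 0.07, -0.23 and 0.00 in these comparisons, with 0.01, -0.03 and 0.03 over all genes. Fitted on the 5 EXPD4 and TPA arrays alone, 0 members were called between them, where limma's fit of all 8 arrays called 2. A fit on the 6 EXPD4 and CTRL arrays alone again called 3.

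**Figure D3:**
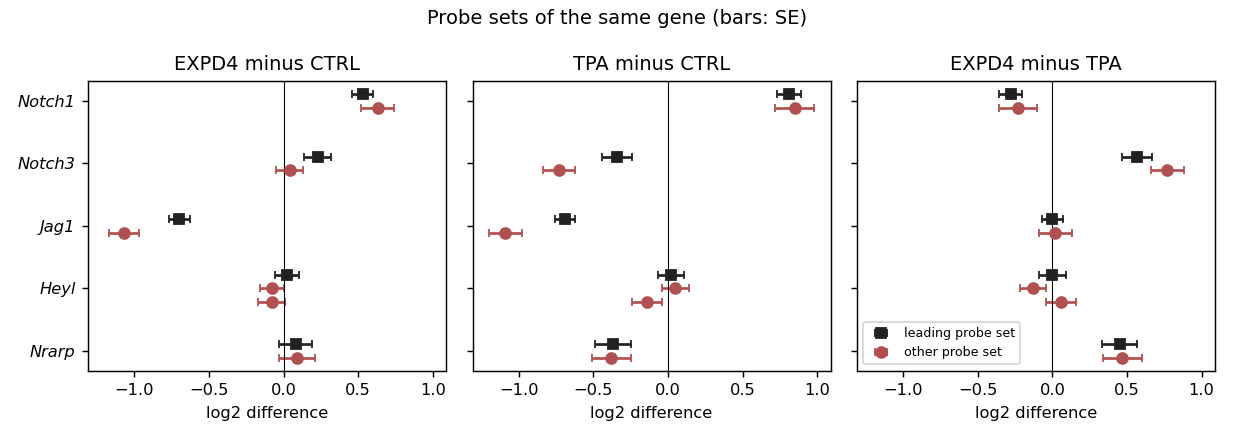
Log2 differences (horizontal axes, bars are SE) for the 5 members with more than 1 probe set. Black squares are the leading probe sets and red circles the others. The probe sets of Notch1, Jag1 and Nrarp lie on the same side of 0 in both comparisons with CTRL, Jag1 differs more in its other probe set (-1.07 against -0.70 in EXPD4), and the 3 of Heyl scatter around 0.

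The rest of the pathway was followed in a list of 92 other genes, of which 81 were measured and 13 lay under the background limit on every array. In EXPD4 against CTRL, 8 were higher, 5 lower and 68 did not pass. In TPA against CTRL, 18 were higher, 10 lower and 53 did not pass. In EXPD4 against TPA, 4 were higher, 5 lower and 72 did not pass. The shares called were 16%, 34.6% and 11.1%, beside the 11.5%, 20.8% and 5.98% of all genes, and the medians were 0.05, 0.06 and 0.01.

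Of 9 measured proteases that process Notch, 1 was higher and 1 lower in EXPD4 (22.2%, with 11.5% of all genes called), and 2 were higher and 2 lower in TPA (44.4%, with 20.8% of all genes called), each against CTRL. Adam10, the protease that makes the ligand-dependent cut, fell in TPA (-0.65 ± 0.10, adjusted p = 0.00215), with means of 10.06 ± 0.14 in EXPD4, 9.59 ± 0.04 in TPA and 10.25 ± 0.10 in CTRL. Its other probe sets were also called lower in TPA (-1.16 ± 0.17 and -0.77 ± 0.09). In EXPD4 against CTRL the leading Adam10 probe set did not pass (-0.19 ± 0.09). The others were at -0.45 ± 0.15 (adjusted p = 0.112) and -0.46 ± 0.08 (adjusted p = 0.00876), so the EXPD4 call of Adam10 depended on the probe set. Its relative Adam17 was at 0.06 ± 0.10 in TPA and 0.10 ± 0.09 in EXPD4 against CTRL and did not pass. Furin, which cuts the receptor during its maturation, was lower in TPA (-0.67 ± 0.09, adjusted p = 0.00108) and in EXPD4 (-0.30 ± 0.08, adjusted p = 0.0466). The EXPD4 call of Furin was lost in each of the 8 fits that left out an array. The gamma-secretase genes that passed were higher: Psenen by 0.26 ± 0.06 in EXPD4 and 0.28 ± 0.07 in TPA, and Aph1b by 0.82 ± 0.18 in TPA. Psenen lost its EXPD4 call without any of the 3 CTRL or 3 EXPD4 arrays (0.24 to 0.28) and its TPA call without any CTRL or TPA array (0.25 to 0.30), and Aph1b lost its call without TPA replicate 1 (0.50). Between EXPD4 and TPA, Adam10 was higher in EXPD4 (0.47 ± 0.10, adjusted p = 0.0327) and Aph1b was lower (-0.73 ± 0.18, adjusted p = 0.0496). Adam10 lost that call without CTRL replicate 2, EXPD4 replicate 2 or 3, or either TPA array, and Aph1b without any array but TPA replicate 2. The other Adam10 probe sets were not called between EXPD4 and TPA (0.71 ± 0.17, adjusted p = 0.0547, and 0.30 ± 0.09, adjusted p = 0.105).

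Of 6 measured enzymes that put sugars on Notch receptors, 0 were higher and 2 lower in EXPD4 against CTRL (33.3%, with 11.5% of all genes called). In TPA against CTRL 1 was higher and 3 were lower (66.7%, with 20.8% of all genes called), and in EXPD4 against TPA 2 were higher and 0 lower (33.3%, with 5.98% of all genes called). Rfng, a Fringe enzyme, had means of 10.53 ± 0.03 in EXPD4, 10.12 ± 0.06 in TPA and 10.86 ± 0.08 in CTRL, and no array of a group overlapped with another group. Rfng was higher in EXPD4 than in TPA (0.41 ± 0.08), and lower in TPA (-0.75 ± 0.08, adjusted p = 0.00026) and in EXPD4 (-0.34 ± 0.07, adjusted p = 0.0162) than in CTRL. Its call against TPA was lost without any EXPD4 array or TPA replicate 1 (0.37 to 0.45 over all 8 such fits), and its EXPD4 call against CTRL was lost without CTRL replicate 2 or EXPD4 replicate 2 or 3 (-0.33 to -0.29). The related Lfng, whose upstream sequence is given above, rose in TPA (0.52 ± 0.10, adjusted p = 0.00651) and was at 0.28 ± 0.09 in EXPD4 (adjusted p = 0.0873). Pofut1, the O-fucosyltransferase on whose sugar Fringe enzymes build, was lower in TPA than in CTRL (-0.50 ± 0.08, adjusted p = 0.0032), and the mean of its probe sets was not called (-0.14). Its difference between EXPD4 and TPA was 0.50 ± 0.08 (adjusted p = 0.0114), which was lost with the mean of probe sets (0.09) and without TPA replicate 1. Eogt, an O-GlcNAc transferase of EGF repeats, fell in EXPD4 (-0.56 ± 0.09, adjusted p = 0.00632) and TPA (-0.54 ± 0.11, adjusted p = 0.00696). The TPA call of Eogt was lost without TPA replicate 1 (-0.46). Its other probe sets were not called in EXPD4 against CTRL (-0.25 ± 0.13, adjusted p = 0.329, and -0.32 ± 0.14, adjusted p = 0.211). Nor were they called in TPA against CTRL (-0.39 ± 0.15, adjusted p = 0.105, and -0.29 ± 0.16, adjusted p = 0.252). The calls of Eogt thus depended on the probe set.

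Of 18 measured genes of trafficking and turnover, 2 were higher and 0 lower in EXPD4 against CTRL, a share of 11.1% that is near the 11.5% of all genes called. In TPA against CTRL 6 were higher and 1 lower (38.9%, with 20.8% of all genes called). Numb, an endocytic adaptor that antagonises Notch, had means of 9.33 ± 0.09 in EXPD4, 9.64 ± 0.02 in TPA and 9.09 ± 0.06 in CTRL, and rose in TPA (0.55 ± 0.08, adjusted p = 0.00175). Neurl1b, a ubiquitin ligase that acts on Notch ligands, rose in TPA by 0.83 ± 0.14 (adjusted p = 0.00352). The Deltex genes Dtx3 (0.77 ± 0.18) and Dtx2 (0.48 ± 0.10) were higher in EXPD4, and Dtx3 also in TPA (1.12 ± 0.20). Without EXPD4 replicate 2 or 3 neither kept its EXPD4 call, nor did Dtx3 without CTRL replicate 1 or 3.

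Of 15 measured nuclear partners of Notch, 1 was higher and 0 lower in EXPD4 against CTRL (6.67%, with 11.5% of all genes called), and 1 was higher and 2 lower in TPA against CTRL (20%, with 20.8% of all genes called). Rbpj, the DNA-binding partner, had signals of 8.34, 8.86 and 8.82 in EXPD4, 8.25 and 8.50 in TPA, and 7.80, 7.29 and 8.08 in CTRL. Both EXPD4 and TPA lay above CTRL, and the CTRL arrays spread widely. Rbpj rose in EXPD4 (0.95 ± 0.21, adjusted p = 0.0211) and did not pass in TPA (0.65 ± 0.23, adjusted p = 0.0875). Its dimmer probe set did not follow in EXPD4 (-0.17 ± 0.10, adjusted p = 0.401), the mean of both was not called (0.39), and the call was lost without CTRL replicate 1 or 2 or EXPD4 replicate 2 or 3. The coactivator Maml1 was at -0.02 ± 0.08 in EXPD4 and -0.17 ± 0.09 in TPA. The corepressor genes Ctbp2 (-0.65 ± 0.16) and Tle3 (-0.25 ± 0.07) were lower and Tle2 (0.45 ± 0.12) was higher in TPA than in CTRL, and each lost its call in 3 or more of the 8 fits that left out an array: Tle3 in all 8, Ctbp2 without CTRL replicate 1 or 3 or either TPA array, and Tle2 without CTRL replicate 1 or 2 or TPA replicate 2. The Tle2 signal was near the background, above the limit on 1 of 2 TPA, 0 of 3 EXPD4 and 0 of 3 CTRL arrays. Tle3 was higher in EXPD4 than in TPA (0.30 ± 0.07, adjusted p = 0.0389), a call lost without any array but CTRL replicate 1.

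Of the other Hes and Hey relatives, 4 of 8 lay under the background limit on every array, including Hes5, another classic target, with means of 5.91 ± 0.10 in EXPD4, 6.02 ± 0.17 in TPA and 5.90 ± 0.02 in CTRL. In EXPD4 against CTRL 0 of the 8 were called. In TPA against CTRL and in EXPD4 against TPA 1 was called (12.5% each, with 20.8% and 5.98% of all genes called). That gene was Bhlhe40, a related repressor better known as a clock and hypoxia gene. It had means of 10.31 ± 0.08 in EXPD4, 11.20 ± 0.01 in TPA and 10.59 ± 0.17 in CTRL, was higher in TPA than in CTRL (0.62 ± 0.11, adjusted p = 0.00393) and was lower in EXPD4 than in TPA (-0.90 ± 0.11, adjusted p = 0.00272).

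Of 17 other genes tied to Notch in keratinocytes, 4 were higher and 2 lower in EXPD4 against CTRL, where 5.69% of all genes were higher and 5.78% lower. In TPA against CTRL 7 were higher and 2 lower, where 10.2% of all genes were higher and 10.6% lower. Cdkn1a, the cell cycle inhibitor p21 that Notch1 is known to induce in mouse keratinocytes, was lower in EXPD4 (-0.47 ± 0.06, adjusted p = 0.00219) and in TPA (-0.41 ± 0.07, adjusted p = 0.0043), opposite in sign to Notch1. Myc was higher in EXPD4 (0.56 ± 0.07, adjusted p = 0.00179) and in TPA (0.95 ± 0.08, adjusted p = 9.48e-05). Gata3 had means of 7.33 ± 0.05 in EXPD4, 7.99 ± 0.09 in TPA and 6.88 ± 0.12 in CTRL, and passed in all 3 comparisons. Klf4, a factor of barrier formation, was higher in TPA (0.47 ± 0.07, adjusted p = 0.00147). Grhl3, the other gene of this list called lower, fell in EXPD4 (-0.72 ± 0.15, adjusted p = 0.018) and in TPA (-0.82 ± 0.17, adjusted p = 0.0102). Ivl lay below every CTRL array in both groups and did not pass (adjusted p = 0.168 in EXPD4 and 0.0532 in TPA). Krt10, the keratin of the first suprabasal layers, had signals of 12.75, 12.75 and 12.70 in EXPD4, 12.73 and 12.71 in TPA, and 11.92, 10.96 and 10.90 in CTRL. It rose by 1.47 ± 0.23 in EXPD4 and by 1.46 ± 0.26 in TPA, each relative to CTRL. Between EXPD4 and TPA, Myc (-0.39 ± 0.08) and Klf4 (-0.36 ± 0.07) were lower in EXPD4, and Myc lost that call without CTRL replicate 2, EXPD4 replicate 2 or 3, or either TPA array, and Klf4 without EXPD4 replicate 1 or 2 or either TPA array.

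**Figure D4:**
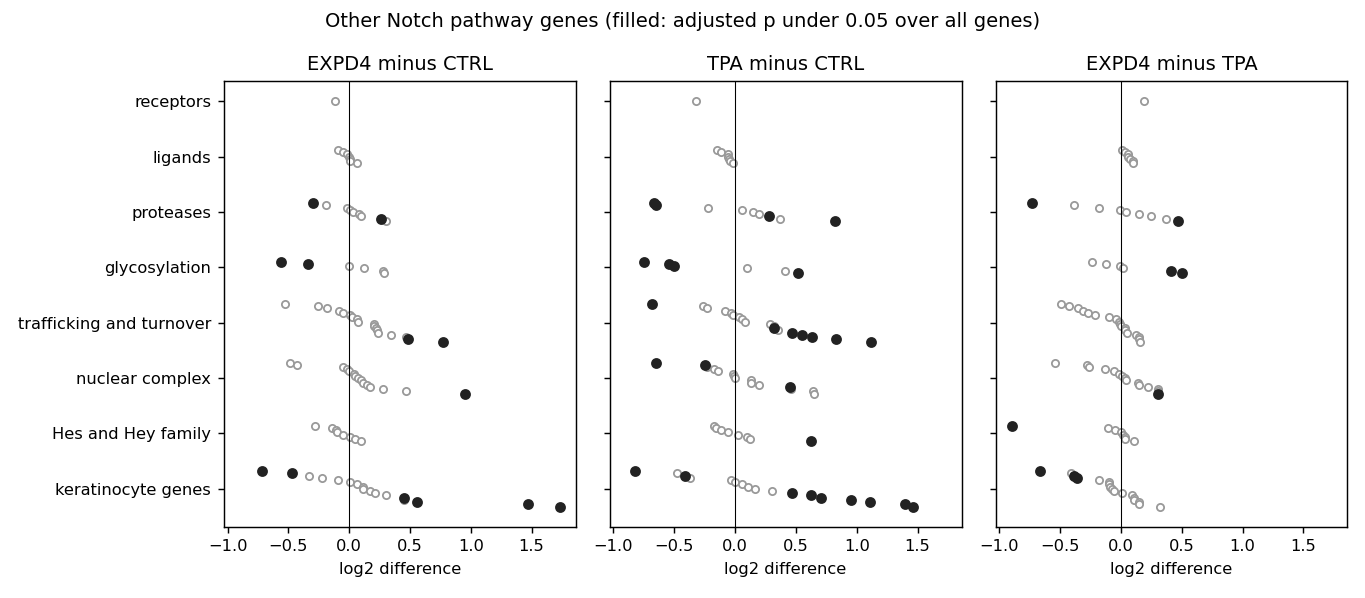
Log2 differences (horizontal axes) of the 81 other measured Notch pathway genes by role in the 3 comparisons. Each point is a gene, and filled points have an adjusted p under 0.05 over all genes. Filled points lie on both sides of 0 for proteases in each comparison and for sugar enzymes in TPA against CTRL, no other ligand is filled, and the keratinocyte genes reach 1.73 in EXPD4 against CTRL.

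Some markers of differentiated keratinocytes rose beside Notch1 and others did not. Of 13 measured suprabasal markers, 7 were higher and 0 lower in EXPD4 than in CTRL, where 5.69% of all genes were higher and 5.78% lower. In TPA 6 were higher and 0 lower than in CTRL, where 10.2% of all genes were higher and 10.6% lower. Those that did not pass include Ivl, at -0.33 ± 0.13 in EXPD4 and -0.48 ± 0.15 in TPA, below every CTRL array. They also include Tgm3, at -0.07 ± 0.07 in EXPD4 and 0.06 ± 0.08 in TPA. Their summed linear signal ranged from 36247 to 39167 in EXPD4, from 35823 to 38225 in TPA and from 20077 to 24482 in CTRL, and Krt77, Lor and Flg were under the background limit on every array. The sum of the 12 basal markers ranged from 56987 to 57819 in EXPD4, from 57735 to 60377 in TPA and from 68748 to 71071 in CTRL. The sum of 9 bulge and hair germ markers ranged from 4183 to 5490 in EXPD4, from 6008 to 6058 in TPA and from 3515 to 3694 in CTRL, with Cd34, Lgr5, Lhx2 and Tbx1 under the limit on every array. Of the 9, 1 was higher and 0 lower in EXPD4 against CTRL, a share of 11.1% that is near the 11.5% of all genes called. In TPA against CTRL 3 were higher and 1 lower (44.4%, with 20.8% of all genes called). Among them Postn, which encodes the matrix protein periostin, had means of 11.04 ± 0.37 in EXPD4, 11.63 ± 0.04 in TPA and 9.72 ± 0.18 in CTRL, while Cdh3 was lower in TPA than in CTRL (-0.41 ± 0.07, adjusted p = 0.00442). Postn was the 1 called in EXPD4 against CTRL (1.31 ± 0.17), where Cdh3, Sox9 and Nfatc1 were at -0.09, -0.21 and 0.08. It had the highest mean of the 9 over all arrays (10.69), so the linear sum mainly follows Postn. The part of these marker lists in the Notch results was not tested. For pericytes and smooth muscle, cells in which Notch3 and Heyl are known to be high, the sum of 8 markers ranged from 595 to 629 in EXPD4, from 534 to 592 in TPA and from 583 to 653 in CTRL, and 5 of the 8 were under the limit. The sum did not overlap between EXPD4 and TPA. In TPA against CTRL 0 of the 8 were higher and 1 lower (12.5%, with 20.8% of all genes called). That marker was Rgs5 (-0.29 ± 0.07, adjusted p = 0.0185), above the limit on 0 of 2 TPA and 2 of 3 CTRL arrays. The part of this list in the Notch3 result was not tested.

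Likeness of pattern was measured by Pearson's r over the 8 arrays, among 9056 genes whose highest group mean was above the median of all genes. Since the arrays fall into 3 groups, a high r mostly means the same order of group means. Notch1 was most like Ago4 (r = 0.997), which encodes an Argonaute protein, and Aldh2 (r = 0.994), an aldehyde dehydrogenase. Aldh2 had means of 11.54 in EXPD4, 11.99 in TPA and 10.72 in CTRL. Jag1 was most like Yipf5 (r = 0.993) and Tgfbi (r = 0.993), a matrix protein gene induced by TGF-beta, with means of 11.96 in EXPD4, 11.92 in TPA and 12.41 in CTRL for Tgfbi. Hes1 was most like Zbtb20 and Birc2 (r = 0.986 each), Notch2 like Hk1 (r = 0.989) and Ppp1ca (r = 0.988), and Notch3 like Mgst2 (r = 0.989) and Rangrf (r = 0.982). The closest genes to Dll1 were Cemip2 (r = 0.951) and Preb (r = 0.947).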

How the data were processed

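Each array carried RNA of sorted basal keratinocytes of 1 mouse. The deposited log2 signals were made by the authors with RMA (version not given in the sources used here), as the submitters' processing notes say. Per the labels' protocols, cDNA of 300 cells was amplified and hybridised to Affymetrix arrays. The table held 45141 probe sets on 8 arrays and 0 columns of other samples. Scanner files and detection calls were not used here. The number of arrays limits the precision of the differences. By the platform annotation, 28898 had a single gene symbol, 551 had several and 15588 had none, and 104 array controls were left out. Symbols were updated by gene identifier in RefSeq's GRCm38.p6 table, and those of 161 genes were kept as they stood. The probe set with the highest mean led each of 17097 genes. As a check of that annotation, probe sets sharing a gene had a median r of 0.95 over 97 pairs.

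limma 3.58.1 in R 4.3.3 fitted 1 coefficient per group over all 8 arrays (lmFit, then eBayes with 3.54 prior and 5 residual degrees of freedom), with Benjamini-Hochberg adjustment over all genes for each of the 3 comparisons and a threshold of 0.05. Unadjusted p lay under 0.05 for 4056, 5412 and 3307 genes. The fit was tested on data simulated with independent noise for each gene and array. Such data hold no effect shared by the genes of an array, so that test cannot bear on such effects here. Members and lists were chosen with earlier results of these data known. The genes named were all members, up to 3 called genes of smallest p per pathway role and comparison, 8 whatever they did (Rbpj, Adam10, Adam17, Dll4, Notch4, Hes5, Lfng, Maml1), and the 2 genes most like each called member. Odc1, Krt16, Krt77, Lor, Flg and other markers are given as checks. Grhl3 and Ivl are given beside the named pathway genes and are not counted among them below. Replicate numbers did not pair the arrays: deviations from the group means had r between -0.18 and 0.03 for same-numbered arrays, which came from different mice. Alternatives were other normalizations, a signal filter, other probe set rules, other variance models, fewer arrays and a replicate block.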

Additional observations from a re-analysis of the deposited data

How the results depend on the processing

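Apart from the test against a fold of 1.5, which called 0 members in each comparison, the called directions of the members held under every alternative run, and Notch1 (0.52 to 0.63 in EXPD4, 0.73 to 0.89 in TPA) and Jag1 (-1.07 to -0.67 in EXPD4, -1.09 to -0.66 in TPA) kept their calls against CTRL in all of them. Hes1 in TPA also kept its call against CTRL in these (0.83 to 1.18, adjusted p at most 0.0243).

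The comparison of EXPD4 with TPA, where 2 members, 9 other pathway genes and 1022 genes were called, was the least stable. It gave 4 members with a trended robust eBayes and 1 with array weights. With only the arrays of the 2 groups it gave 0 members, 4 pathway genes and 511 genes, and with the replicate block 1, 3 and 541. Leaving out 1 array gave 0 to 2 members, 3 to 8 pathway genes and 560 to 922 genes. The member count fell to 0 without EXPD4 replicate 2, and to 1 without any other array but CTRL replicate 2. Against CTRL, leaving out 1 array gave 2 to 3 members in EXPD4 and 4 to 5 in TPA, with 7 to 14 and 20 to 28 pathway genes, and 1261 to 2076 and 2613 to 3344 genes. The lowest EXPD4 counts came without EXPD4 replicate 3 (7 pathway genes) and CTRL replicate 2 (8 pathway genes, 1261 genes). The replicate block changed the member calls of Notch3 only, to adjusted p = 0.129 in TPA against CTRL and 0.0702 in EXPD4 against TPA. The closest partner of an array shared its number for 0 of 6 EXPD4 and CTRL arrays. It did so for 2 of 5 TPA and CTRL arrays and for 1 of 5 EXPD4 and TPA arrays. The mean of probe sets gave 21 pathway genes in EXPD4 against CTRL, where the leading probe sets gave 13.

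The test against a fold of 1.5 called 0, 2 and 0 pathway genes, and 173, 596 and 64 genes (EXPD4 against CTRL, TPA against CTRL, EXPD4 against TPA), so no member is shown to exceed that fold. Nrarp passed in TPA against CTRL and in EXPD4 against TPA with the signal filter (adjusted p = 0.0451 and 0.0486) and with a trended robust eBayes (0.0313 and 0.0286). Leaving out 1 array gave Nrarp differences of -0.50 to -0.24 in TPA against CTRL and 0.32 to 0.58 in EXPD4 against TPA. Notch2 passed in EXPD4 against CTRL with array weights (adjusted p = 0.0404). Notch1 passed in EXPD4 against TPA with a trended robust eBayes (0.0142). Notch3 lost its call in TPA against CTRL with arrays centred on their median (adjusted p = 0.0803), a trended robust eBayes (0.0561), array weights (0.0606) and only the arrays of the 2 groups (0.0676). Heyl has no value under the signal filter or with signals raised to the limit. Of the 27 named pathway genes, 11, 20 and 9 were called, and 5, 13 and 2 of these kept the call under every alternative other than the fold of 1.5, with 0 changes of sign.

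Differences near 0 that never passed changed sign. Hey1 in TPA against CTRL was 0.02 with quantile normalization and with centring on the median. Heyl in EXPD4 against TPA was -0.03 with both, 0.00 with array weights, -0.02 with the mean of probe sets and -0.13 with a single probe set, and against CTRL -0.05 and -0.02 with the mean of probe sets and -0.08 (EXPD4) and -0.14 (TPA) with single probe sets. Jag1 in EXPD4 against TPA was 0.01 with the mean of probe sets and 0.02 with its other probe set. With 1 array left out, Hey1 lay between -0.02 and 0.14, -0.04 and 0.04, and -0.01 and 0.15, Heyl between -0.03 and 0.05, -0.07 and 0.11, and -0.09 and 0.09, and Jag1 in EXPD4 against TPA between -0.04 and 0.02. The causes were not tested.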
